A study of Mus musculus with 16 samples.

Results

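The subject here is the difference of the tumor effect between treated and untreated mice: tumor minus peri-tumor liver in 4 mice treated with a decoction of traditional Chinese medicine (TCM), less the same quantity in 4 control mice. All 16 libraries of the 16 in the series enter it, 8 from TCM mice and 8 from control mice, and each mouse gives 1 tumor and 1 peri-tumor library, joined by its animal code. Of 54838 genes in the count table, 14865 had enough counts to be tested, and all of them are described. Every mouse carries the genotype HrasG12V, an activated form of the Ras oncogene, so both treatment groups share it. The labels name Ras transgenic mice and induction by DEN (diethylnitrosamine, a liver carcinogen) together, without saying which mice received DEN. They do not state the promoter of the transgene, the sex of the mice, what the decoction held or how much was given. The entry of 3 months may be an age or a length of treatment. The stated purpose of the series is to ask how such a decoction acts on liver tumors.

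A tumor effect can differ between treatments in more than 1 way. Treatment may move a gene in the liver around the tumor, in the tumor, or in both by unequal amounts, and the tumor effect alone does not tell these apart. Peri-tumor liver consists mostly of hepatocytes, which make plasma proteins, detoxify drugs and steroids, oxidise fatty acids and answer inflammation with an acute phase response; liver tumors can lose part of that program. Each gene was therefore placed by its TCM against control change in each tissue. A gene was put on the peri-tumor side where peri-tumor tissue carried at least 70% of the difference, on the tumor side where it carried at most 30%, and otherwise on both sides. The peri-tumor side thus also holds genes that TCM moved the same way in tumors by less, such as Cyp2c40 (log2 -3.38 in peri-tumor tissue and -1.21 in tumors).

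The tumor effect differed between TCM and control mice in 107 of 14865 tested genes, 0.720% of them, at an adjusted p under 0.05 (edgeR quasi-likelihood test with the mouse as a block, Benjamini-Hochberg). Levels are CPM, counts scaled to library size, differences are log2 fold changes with their standard error after ±, and every adjusted p comes from that test unless another is named. It was higher in TCM mice, that is less negative or more positive, in 75 genes (0.505%) and lower in 32 (0.215%), and 87 of the 107 differed at least 2-fold. An unadjusted p under 0.05 was reached by 2850 genes (19.2%), 1527 higher (10.3%) and 1323 lower (8.90%), and 7716 genes (51.9%) had a difference above 0. In all of the 107 but Klhdc7a the 4 TCM mice and the 4 control mice did not overlap, which was so for 1797 tested genes in all (12.1%). In Klhdc7a the difference was 0 in control mouse 2 and in TCM mice 1 to 3. The peri-tumor side held 41 of the called genes (28 higher, 13 lower), the tumor side 17 (12 and 5) and both sides 49 (35 and 14). In 62 genes the estimated tumor effect had opposite signs in the 2 treatments, in 40 it had 1 sign and was smaller in TCM mice, and in 5 it was larger. These signs carry no threshold, and some estimates lay near 0 in 1 treatment. In control mice the tumor effect was log2 0.003 for Acaa1b and 0.05 for Mettl7a1 (adjusted p = 0.993 and 0.951, edgeR fit of group means), both counted as opposite. Of the same 107 genes, 48 were called for TCM against control in peri-tumor tissue alone, 20 in tumors alone, 31 in both and 8 in neither; over all tested genes these comparisons called 14.1% and 7.28%. The number of calls depended on the test and on single mice: DESeq2 with the same block called 690 of the 13712 genes to which it gave an adjusted p (5.03%) and limma-voom with the mouse as a random block 441 of 14865 (2.97%). Without control mouse 4 the count was 554. It fell to 24, 23 and 20 without control mouse 1, 2 or 3 and to 23, 62 and 39 without TCM mouse 1, 2 or 3, and it was 115 without TCM mouse 4. None of the 107 changed sign in any of these fits. Leaving out 1 mouse could hardly reverse a gene whose 2 groups of mice did not overlap, so the kept sign is no separate support.

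**Figure D1:**
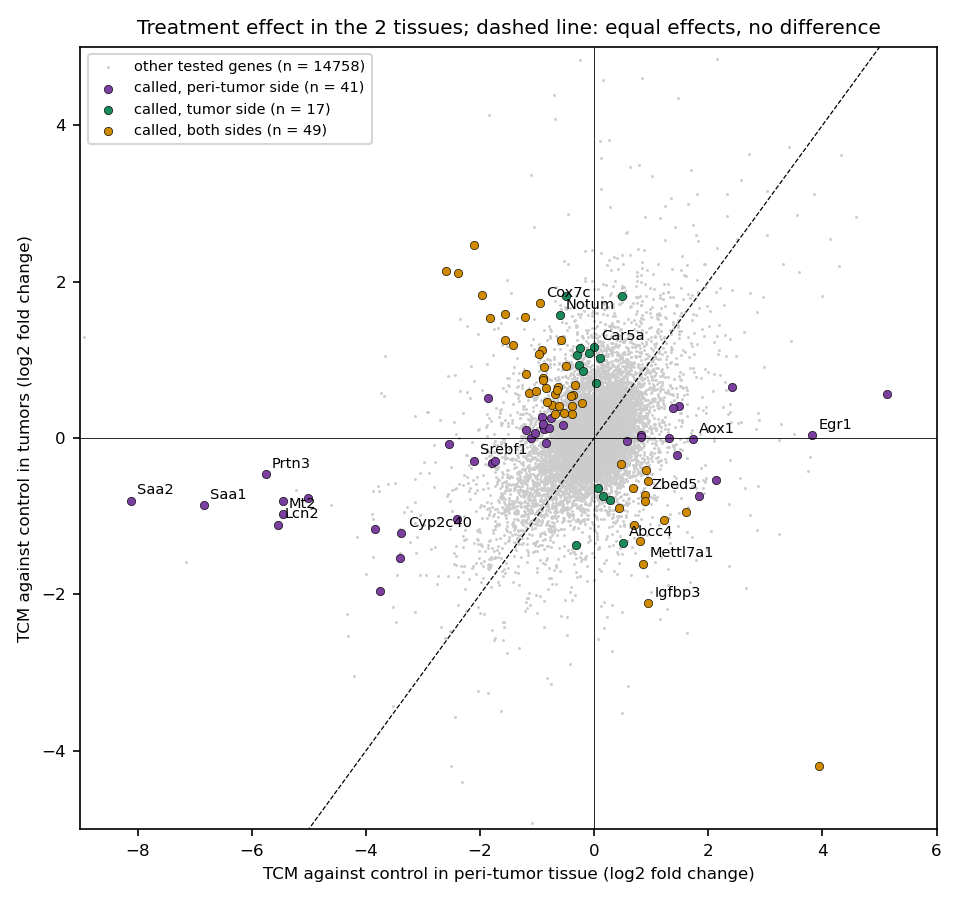
Log2 fold change of TCM against control in peri-tumor tissue (x axis) and in tumors (y axis) for each tested gene; the 107 called genes are coloured by side, and a gene on the dashed line has no difference. The 41 genes of the peri-tumor side lie nearer the horizontal than the vertical axis, with Saa2, Saa1, Prtn3, Lcn2 and Mt2 far to the left. Some of them lie off it, such as Cyp2c40 and Acnat2 at -1.21 and -1.53 in tumors. The 17 of the tumor side lie nearer the vertical axis, and 9 genes, of which Klhdc7a is called, lie outside the axes.

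Over all tested genes the tumor effect was smaller in TCM mice. The median absolute difference between the tissues of a mouse was 0.518, 0.512, 0.481 and 0.472 on the log2 CPM scale in control mice 1 to 4 and 0.392, 0.423, 0.446 and 0.431 in TCM mice 1 to 4. The 2 groups did not overlap, and their means, 0.496 ± 0.0226 and 0.423 ± 0.0228 (SD, n = 4), differed by -0.0728 (exact permutation test, two-sided, p = 0.0286, the smallest that 4 against 4 mice allow). Tumor against peri-tumor tissue was called for 6415 genes (43.2%) in control and 4897 (32.9%) in TCM mice, and 92.0% of the genes called in control mice had the same sign in TCM mice. Across the 14865 genes the 2 tumor effects, which share no library, had a Spearman rho of 0.736, a description over genes that are not independent.

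Total counts ran from 13947483 to 16194224 per library. The tissue labels were checked with a list of oncofetal and liver tumor markers, whose summed level was 317 to 987 CPM in control peri-tumor tissue and 4830.2 to 6945 in control tumors. The same sum was 114 to 309 in TCM peri-tumor tissue and 3087 to 4845 in TCM tumors. Hras itself, whose counts may or may not include the transgene, stood at 34.5 to 41.6 CPM in control peri-tumor tissue and 31.4 to 45.2 in control tumors. In TCM mice Hras had 27.7 to 32.7 in peri-tumor tissue and 29.4 to 43 in tumors, and its tumor effect did not pass the test for a difference (adjusted p = 0.418, edgeR). Control mouse 4 stood apart: by Dixon's criterion its peri-tumor library lay away from the other 3 in 3.61% of tested genes and its tumor library in 3.46%, against 0.774% to 1.27% for the other control libraries, and among TCM libraries the peri-tumor library of mouse 3 reached 3.08%. The difference of the tumor effect also moved with GC content and transcript length: its median was -0.17 on the log2 scale in the 2971 genes with the lowest GC content and 0.19 in as many with the highest. It was 0.14 in the 2971 shortest and -0.12 in the 2971 longest. The part of these trends in single genes was not tested, and a fit with each library's trend on GC content and length removed called 142 genes, among them 95 of the 107. Since p-values here measure the spread between 4 mice per group, any step of sample handling that ran with 1 tissue of 1 treatment cannot be told apart from the difference itself.

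Both metallothionein genes, which code for small zinc- and copper-binding proteins of the acute phase, were on the peri-tumor side. Their RefSeq promoters (GRCm38.p6, plus strand, 250 bases up to the start site) are shown because the genes are neighbours and moved together; capitals mark the core of the metal response element, searched as TGCACNC and TGCGCNC on both strands.
Mt1 (chr8:94178839-94179088): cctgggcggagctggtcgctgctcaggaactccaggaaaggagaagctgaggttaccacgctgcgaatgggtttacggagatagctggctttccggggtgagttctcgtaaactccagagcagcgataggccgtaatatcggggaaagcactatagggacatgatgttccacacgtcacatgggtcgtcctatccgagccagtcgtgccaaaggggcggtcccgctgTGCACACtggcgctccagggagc
Mt2 (chr8:94172368-94172617): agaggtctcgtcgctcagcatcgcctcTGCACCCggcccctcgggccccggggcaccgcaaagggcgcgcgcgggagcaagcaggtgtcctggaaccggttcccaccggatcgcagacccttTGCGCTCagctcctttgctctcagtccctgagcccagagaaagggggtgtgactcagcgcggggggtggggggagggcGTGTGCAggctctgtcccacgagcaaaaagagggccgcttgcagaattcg
The Mt1 window holds 1 match and the Mt2 window 3, where 21.4% of 32851 promoter windows of this length hold at least 1 and 1.26% at least 3. These counts depend on where the windows sit and are not counts for the whole promoters. The GENCODE M21 gene starts, 94179082 for Mt1 and 94172664 for Mt2, differ from the RefSeq starts used, and sequence outside the windows was not searched. A match of letters is no evidence of binding.

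Mt2 had 77, 180.3, 107.6 and 121 CPM in peri-tumor tissue and 34.6, 60.2, 55 and 218 in tumors of control mice 1 to 4. In TCM mice Mt2 had 2.38, 2.97, 3.4 and 2.3 in peri-tumor tissue and 40.5, 62.5, 25.8 and 59.1 in tumors, in the same order. The 4 TCM peri-tumor libraries lay far below the other 12. In TCM mice the tumor was thus higher than the liver around it in every mouse, while in control mice it was lower in mice 1 to 3 and higher in mouse 4. The difference of the tumor effect was log2 4.76 ± 0.57, adjusted p = 0.00787, and -5.46 of TCM against control was seen in peri-tumor tissue against -0.97 in tumors (log2). Mt1 showed the same order, with 211 to 539.7 CPM in control peri-tumor tissue and 137 to 464 in control tumors. In TCM mice Mt1 had 6.15 to 16 in peri-tumor tissue and 102.2 to 205 in tumors (log2 4.31 ± 0.54, adjusted p = 0.0118). Without control mouse 3 Mt1 was no longer called (adjusted p = 0.0564), and Mt2 stayed called without each of the 8 mice (at most 0.0407, edgeR).

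The serum amyloid A genes, acute phase proteins that hepatocytes secrete with high-density lipoprotein, made up 4 more of the called genes. Saa1 had 313, 444, 373 and 5984 CPM in peri-tumor tissue and 27.3, 46.3, 33.7 and 280.1 in tumors of control mice 1 to 4. In TCM mice Saa1 had 16, 19.1, 8.09 and 18.8 in peri-tumor tissue and 54.4, 17.7, 16.9 and 125 in tumors, in the same order. Tumors held less Saa1 than the surrounding liver in all 4 control mice, by log2 values of -3.51, -3.26, -3.46 and -4.42, and more in TCM mice 1, 3 and 4, while TCM mouse 2 was at -0.11. Control mouse 4 had the highest level in both tissues, and the difference was called with and without it (log2 5.05 ± 0.55, adjusted p = 0.0047; adjusted p at most 0.0272 without any 1 mouse, edgeR). Saa2 followed Saa1 (log2 5.63 ± 0.81, adjusted p = 0.0223), although 32.1% and 31.8% of the 50-base words of these genes also occur in other genes, so reads may have been split between them. Saa3, made also outside hepatocytes, had 11 to 112 CPM in control peri-tumor tissue and 1.86 to 18.9 in control tumors. In TCM mice Saa3 had 0.831 to 3.71 in peri-tumor tissue and 0.793 to 2.19 in tumors (log2 1.78, adjusted p = 0.0226). Saa4, the constitutive member, had 453 to 679 CPM in control peri-tumor tissue and 198 to 238 in control tumors. In TCM mice Saa4 had 212 to 280.1 in peri-tumor tissue and 194 to 268 in tumors (log2 1.28, adjusted p = 0.0194). In Saa4 the control peri-tumor libraries were the high group and the other 3 groups overlapped. Lipocalin 2 (Lcn2), which binds bacterial iron carriers, stood at 166 to 765 CPM in control peri-tumor tissue and 621 to 936 in control tumors. In TCM mice Lcn2 had 5.37 to 13 in peri-tumor tissue and 121 to 704 in tumors. It was higher in tumors in all 8 mice and more so in TCM mice, through peri-tumor levels far below those of control mice (log2 3.98 ± 0.72, adjusted p = 0.0428). That call was lost without control mouse 1, 2 or 3 or TCM mouse 1, 2 or 4 (adjusted p up to 0.129) with the GC and length correction and in the fit limited to genes with under 25% of words shared, and without TCM mouse 3 the value rose to 4.67.

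Of 34 tested acute phase genes, 7 were called higher and 0 lower (Saa1, Saa2, Saa3, Saa4, Mt1, Mt2 and Lcn2), against 0.505% and 0.215% of all tested genes, and an unadjusted p under 0.05 was reached by 19 higher and 0 lower (10.3% and 8.90% of all genes). The median difference over the list was 0.79 on the log2 scale, where that of all tested genes was 0.02. In peri-tumor tissue 23 of the 34 were called lower in TCM mice and 0 higher (7.35% and 6.71% of all genes); in tumors 5 were lower and 2 higher (2.72% and 4.55%). DESeq2 called 17 of the 34 (5.03% of all genes), and the fit without the mouse block 4 (1.11%). Complement and coagulation genes, also products of hepatocytes, had 3 of 37 called higher and 0 lower (0.505% and 0.215% of all genes), with 35 of 37 above 0 (51.9% of all genes) and a median of 0.36. These were coagulation factor F7 on the peri-tumor side (log2 1.13 ± 0.18, adjusted p = 0.0281; lost without any mouse but control mouse 4 and TCM mouse 4, up to 0.0984), mannose-binding lectin Mbl1 on the tumor side and vitronectin (Vtn) on both.

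Proteinase 3 (Prtn3), a serine protease known from neutrophil granules, had the lowest p of all genes. It lies at chr10:79874476-79883174 on the plus strand (GRCm38, GENCODE M21). Its level was 30.3, 36.2, 16.7 and 28.4 CPM in peri-tumor tissue and 8.62, 11.5, 6.56 and 7.22 in tumors of control mice 1 to 4. In TCM mice Prtn3 had 0.529, 0.472, 0.453 and 0.576 in peri-tumor tissue and 4.44, 3.91, 3.68 and 12.7 in tumors, in the same order. Tumors were lower than peri-tumor liver in all 4 control mice and higher in all 4 TCM mice, and the TCM peri-tumor libraries held 6 to 9 counts each. The difference was log2 5.18 ± 0.32, adjusted p = 0.000275 (edgeR), and it was called without each mouse in turn and under all 8 other settings. Of 18 neutrophil markers 9 could be tested, and 2 of these, Prtn3 and Lcn2, were called higher and 0 lower (0.505% and 0.215% of all genes). The median difference of the 9 was only 0.17, and 5 of them were above 0 (51.9% of all genes). The granule genes Elane and Mpo had 0 to 10 and 0 to 5 counts per library, and Ly6g was at 0 in 3 of the 4 groups. The list's summed level, in control mice most of it Lcn2, was 197 to 809.9 CPM in control peri-tumor tissue and 639 to 1092 in control tumors. The same sum was 16.3 to 21.8 in TCM peri-tumor tissue and 132 to 728 in TCM tumors. In bulk tissue fewer cells of a type and less RNA per cell cannot be told apart. The part of neutrophils in the values of Prtn3 and Lcn2 was not tested.

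**Figure D2:**
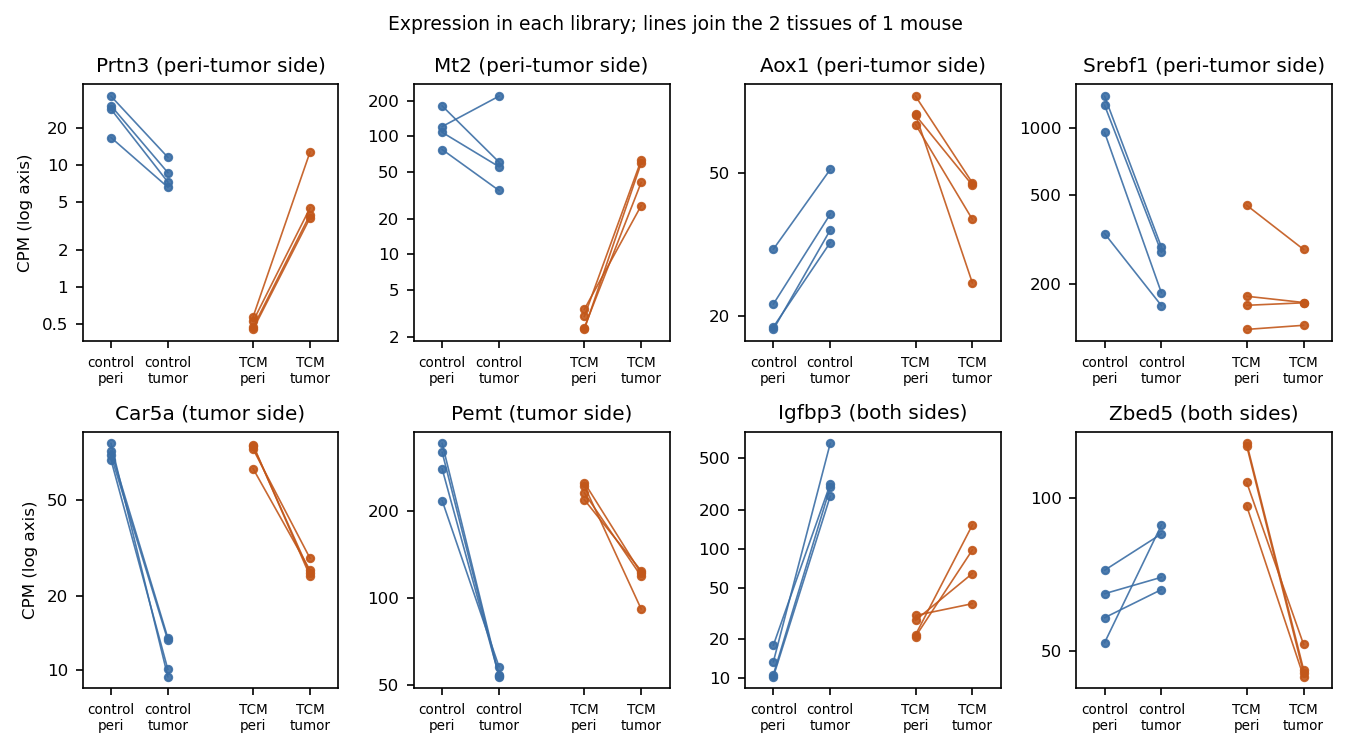
CPM on a log axis in each of the 16 libraries for 8 called genes, with a line joining peri-tumor tissue and tumor of 1 mouse (control in blue, TCM in orange). In Prtn3 and Mt2 the lines slope in opposite directions in all mice but control mouse 4 for Mt2, in Car5a and Pemt peri-tumor levels overlap and TCM tumors are higher, and in Igfbp3 and Zbed5 both tissues differ.

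Further genes of the peri-tumor side code for enzymes of drug and steroid metabolism. Cyp2c40, a cytochrome P450 of the Cyp2c family, had 46.5 to 114 CPM in control peri-tumor tissue and 24.7 to 58.5 in control tumors. In TCM mice Cyp2c40 had 6.08 to 11.7 in peri-tumor tissue and 11.7 to 30.5 in tumors. It was lower in tumors in every control mouse and higher in tumors in every TCM mouse (log2 2.12 ± 0.16, adjusted p = 0.00104), and 72.1% of its words are shared with other genes, so its reads may belong in part to them. Cyp2c70, which makes the muricholic acids of mouse bile, and Por, which hands electrons to all microsomal P450s, were lower in the tumors of all 4 control mice and nearer to level in TCM mice (log2 1.09 and 1.40, adjusted p = 0.0393 and 0.0401, edgeR). Fkbp5, a chaperone induced by glucocorticoids, stood at 61.5 to 152 CPM in control peri-tumor tissue and 70.6 to 129 in control tumors. In TCM mice Fkbp5 had 15.5 to 27.9 in peri-tumor tissue and 36.2 to 61.8 in tumors, so that TCM peri-tumor tissue was the low group (log2 1.33, adjusted p = 0.0226). The acyltransferase Acnat2 had 22.3 to 155 CPM in control peri-tumor tissue and 13.7 to 56.7 in control tumors. In TCM mice Acnat2 had 6.35 to 9.45 in peri-tumor tissue and 7.63 to 18.8 in tumors (log2 1.71, adjusted p = 0.0194, 31.5% of words shared). Aldehyde oxidase (Aox1) moved the other way. Its level was 21.6, 18.6, 30.7 and 18.3 CPM in peri-tumor tissue and 38.5, 32.1, 51.3 and 34.7 in tumors of control mice 1 to 4. In TCM mice Aox1 had 72.7, 68.5, 73.1 and 82.2 in peri-tumor tissue and 46.4, 37.2, 24.7 and 47.1 in tumors, in the same order; it rose from liver to tumor in all 4 control mice and fell in all 4 TCM mice (log2 -1.79 ± 0.19, adjusted p = 0.0047). The glucuronosyltransferase Ugt2b38 stood at 95.1 to 143 CPM in control peri-tumor tissue and 52 to 79.8 in control tumors. In TCM mice Ugt2b38 had 277 to 328 in peri-tumor tissue and 51.7 to 93.3 in tumors (log2 -1.36, adjusted p = 0.0345, 37.4% of words shared). Cyp2c40 and Aox1 kept their calls without each mouse, and Acnat2 lost its call without control mouse 1, 2 or 3 or TCM mouse 1 (adjusted p up to 0.0777), Por without any mouse but control mouse 4 and TCM mouse 4 (up to 0.118) and Ugt2b38 without any but control mouse 4 and TCM mouse 2 (up to 0.108). Of 63 phase I genes 3 were called higher and 2 lower (0.505% and 0.215% of all genes). In peri-tumor tissue 14 of them were called higher and 10 lower in TCM mice (6.71% and 7.35% of all genes), and in tumors 17 and 1 (4.55% and 2.72%).

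Lipid and stress genes on the peri-tumor side fell on either side of 0. Srebf1, the transcription factor that drives fatty acid synthesis, had 1261, 1385, 954 and 337 CPM in peri-tumor tissue and 278, 293, 183 and 160.4 in tumors of control mice 1 to 4. In TCM mice Srebf1 had 126, 177, 161 and 450.4 in peri-tumor tissue and 131, 166, 165 and 286 in tumors, in the same order. The first 3 control peri-tumor libraries were the high ones, control mouse 4 lay within the TCM range, and tumors of the 2 treatments overlapped (log2 1.81 ± 0.30, adjusted p = 0.0308). Fgf21, a hormone that liver releases on fasting and stress, rose in tumors in all 8 mice and less so in TCM mice, with 0.0698 to 0.827 CPM in control peri-tumor tissue and 2.51 to 23 in control tumors. In TCM mice Fgf21 had 0.675 to 2.57 in peri-tumor tissue and 3.35 to 11.9 in tumors (log2 -2.63 ± 0.36, adjusted p = 0.0174). Its place on the peri-tumor side was narrow, since peri-tumor tissue carried 71.1% of the difference. TCM against control was called in neither tissue (adjusted p = 0.109 in peri-tumor tissue and 0.412 in tumors, edgeR fit of group means). The peroxisomal thiolase Acaa1b was at 158 to 315 CPM in control peri-tumor tissue and 195 to 331 in control tumors. In TCM mice Acaa1b had 659 to 956 in peri-tumor tissue and 279 to 433 in tumors, highest in TCM peri-tumor tissue (log2 -1.11, adjusted p = 0.0281, 35.5% of words shared). Fgf21 and Acaa1b were the 2 of 45 fatty acid oxidation and PPARalpha target genes called, both lower (0.215% of all genes). Of the 45, 38 were below 0 and the median was -0.35, while 51.9% of all genes were above 0 with a median of 0.02. In peri-tumor tissue 25 were called higher and 2 lower in TCM mice (6.71% and 7.35% of all genes). Trp53inp1, a stress protein induced by p53, had 25.3 to 82.6 CPM in control peri-tumor tissue and 108.8 to 197 in control tumors. In TCM mice Trp53inp1 had 100.03 to 166 in peri-tumor tissue and 139 to 154 in tumors, with control peri-tumor tissue the low group (log2 -1.75, adjusted p = 0.0226). Tmem56 had the same order, with 109.8 to 228 CPM in control peri-tumor tissue and 280.4 to 387 in control tumors. In TCM mice Tmem56 had 347 to 451 in peri-tumor tissue and 368 to 466 in tumors (log2 -1.05, adjusted p = 0.0345). Egr1, an immediate early transcription factor, stood at 3.38 to 27.5 CPM in control peri-tumor tissue and 88.2 to 201 in control tumors. In TCM mice Egr1 had 89.5 to 215 in peri-tumor tissue and 104.8 to 200.2 in tumors. Only the control peri-tumor libraries were low, and control mouse 4 was the highest of them (log2 -4.27 ± 0.80, adjusted p = 0.0472; without that mouse -5.12, 0.000226). Fgf21 lost its call without control mouse 1 or 2 or TCM mouse 3 (adjusted p up to 0.0754, edgeR). Srebf1, Acaa1b, Trp53inp1 and Tmem56 lost theirs without any mouse but control mouse 4 and TCM mouse 4 (up to 0.107, 0.108, 0.086 and 0.11), and Egr1 without any mouse but control mouse 4 (up to 0.146).

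On the tumor side 12 genes were called higher, and the 6 described first fell in the tumors of all 8 mice, by less in TCM mice. Mitochondrial carbonic anhydrase (Car5a), which supplies bicarbonate for the urea cycle, had 79.8, 85.4, 73.1 and 76.2 CPM in peri-tumor tissue and 13.5, 9.35, 10.03 and 13.2 in tumors of control mice 1 to 4. In TCM mice Car5a had 80.9, 83.2, 67.2 and 84.1 in peri-tumor tissue and 28.7, 25, 25.7 and 24.3 in tumors, in the same order. Peri-tumor levels overlapped between treatments, and every TCM tumor was above every control tumor (log2 1.18 ± 0.18, adjusted p = 0.0226). Pemt, which makes phosphatidylcholine in hepatocytes, had 343, 319.98, 280.2 and 218 CPM in peri-tumor tissue and 54.1, 53.5, 53.9 and 58 in tumors of control mice 1 to 4. In TCM mice Pemt had 219, 251, 231 and 245 in peri-tumor tissue and 124, 122, 119 and 91.8 in tumors, in the same order. All 8 tumors were lower than their liver, and TCM tumors lay above control tumors without overlap (log2 1.32 ± 0.20, adjusted p = 0.0226). Mbl1, which starts complement on microbial sugars, had 118 to 171 CPM in control peri-tumor tissue and 20.2 to 39.6 in control tumors. In TCM mice Mbl1 had 136 to 185 in peri-tumor tissue and 53 to 83.5 in tumors (log2 0.93, adjusted p = 0.0281). Fxyd1, a regulator of the sodium pump, had 77 to 128 CPM in control peri-tumor tissue and 20.6 to 34 in control tumors. In TCM mice Fxyd1 had 68.6 to 104.7 in peri-tumor tissue and 43.7 to 58.8 in tumors (log2 1.19, adjusted p = 0.0332). Haao, an enzyme of the route from tryptophan to NAD, stood at 367 to 502 CPM in control peri-tumor tissue and 86 to 112 in control tumors. In TCM mice Haao had 345 to 422 in peri-tumor tissue and 178 to 253 in tumors (log2 1.17, adjusted p = 0.0435). Notum, which inactivates Wnt proteins and is made around the central vein, had 22.3 to 33.3 CPM in control peri-tumor tissue and 1.84 to 3.28 in control tumors. In TCM mice Notum had 9.29 to 27.2 in peri-tumor tissue and 3.56 to 9.54 in tumors (log2 2.19 ± 0.40, adjusted p = 0.0434). Haao was the 1 gene called among 52 of the urea cycle and amino acid breakdown, of which 45 were above 0 with a median of 0.39; in tumors 26 of the 52 were called higher and 0 lower in TCM mice (4.55% and 2.72% of all genes), and in peri-tumor tissue 9 and 1 (6.71% and 7.35%). Pericentral hepatocyte genes had 1 of 31 called higher (Notum) and 1 lower (Cyp2a5), with 26 above 0 and a median of 0.81. Over all tested genes 0.505% were called higher and 0.215% lower, 51.9% were above 0 and the median was 0.02. Every call named in this paragraph was lost without several of the mice: Car5a and Mbl1 without control mouse 1, 2 or 3 or TCM mouse 1 or 3 (adjusted p up to 0.086 and 0.101), and Pemt, Fxyd1, Haao and Notum also without TCM mouse 2 (up to 0.086, 0.0984, 0.129 and 0.123, edgeR).

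Fewer genes of the tumor side were lower in TCM mice. Abcc4, a pump that exports bile acids and nucleotides and a target of NRF2, rose in all 4 control tumors, with 3.31 to 9.26 CPM in control peri-tumor tissue and 16.9 to 29.7 in control tumors. In TCM mice Abcc4 had 7.48 to 9.79 in peri-tumor tissue and 3.39 to 13.7 in tumors (log2 -2.01 ± 0.37, adjusted p = 0.0449). Cd47, the surface protein that holds off phagocytes, rose in tumors of both treatments and less in TCM mice, with 58.9 to 64.3 CPM in control peri-tumor tissue and 119 to 149 in control tumors. In TCM mice Cd47 had 60.3 to 66.9 in peri-tumor tissue and 77.7 to 90.3 in tumors (log2 -0.71, adjusted p = 0.0476). Abcc4 was no longer called without control mouse 1, 2 or 3 or TCM mouse 1, 2 or 3 (up to 0.129) and Cd47 without any mouse but control mouse 4 (up to 0.131). Cyp2a5, a P450 that oxidises coumarin and nicotine, had 344 to 1210.3 CPM in control peri-tumor tissue and 409 to 1589 in control tumors. In TCM mice Cyp2a5 had 623 to 957 in peri-tumor tissue and 324 to 663 in tumors (log2 -1.06, adjusted p = 0.0226), with control mouse 4 the lowest control mouse in both tissues. For Cyp2a5, TCM against control was called in neither tissue (adjusted p = 0.648 in peri-tumor tissue and 0.055 in tumors, edgeR fit of group means). Rpl23a and the pseudogene Rpl34-ps1 had log2 values of -1.09 and -0.91 (adjusted p = 0.0174 and 0.0226). Their reads are uncertain, since 40.8%, 74% and all of the words of Cyp2a5, Rpl23a and Rpl34-ps1 occur in other genes. Cyp2a5 lost its call without control mouse 1, 2 or 3 or TCM mouse 1 or 3, Rpl34-ps1 without control mouse 1, 2 or 3 or TCM mouse 2 or 3, and Rpl23a without control mouse 3 or TCM mouse 1 (adjusted p up to 0.0903, 0.086 and 0.0782, edgeR).

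A pair of genes on the tumor side needs separate mention. The mitochondrial proline tRNA gene mt-Tp had 8.15, 7.99, 9.22 and 9.56 CPM in peri-tumor tissue and 1.97, 1.25, 1.8 and 1.43 in tumors of control mice 1 to 4. In TCM mice mt-Tp had 6.41, 6.28, 6.05 and 5.95 in peri-tumor tissue and 5.59, 4.9, 7.0 and 5.41 in tumors, in the same order. The control tumors were the low group, without overlap with any other (log2 2.32 ± 0.24, adjusted p = 0.0047); the library kit marks strand, per the labels, but how strand was used in counting is unknown here. Klhdc7a was at 0 in 11 of the 16 libraries. It had 61.1, 0, 57.1 and 91 CPM in peri-tumor tissue and 0, 0, 0 and 0 in tumors of control mice 1 to 4. In TCM mice Klhdc7a had 0, 0, 0 and 64.1 in peri-tumor tissue and 0, 0, 0 and 68.7 in tumors, in the same order. The call rests on TCM mouse 4, the 1 TCM mouse with a level above 0, and was gone without it (adjusted p = 1.0, edgeR) and under DESeq2, limma-voom and the fit without the mouse block, so no fold is given.

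**Figure D3:**
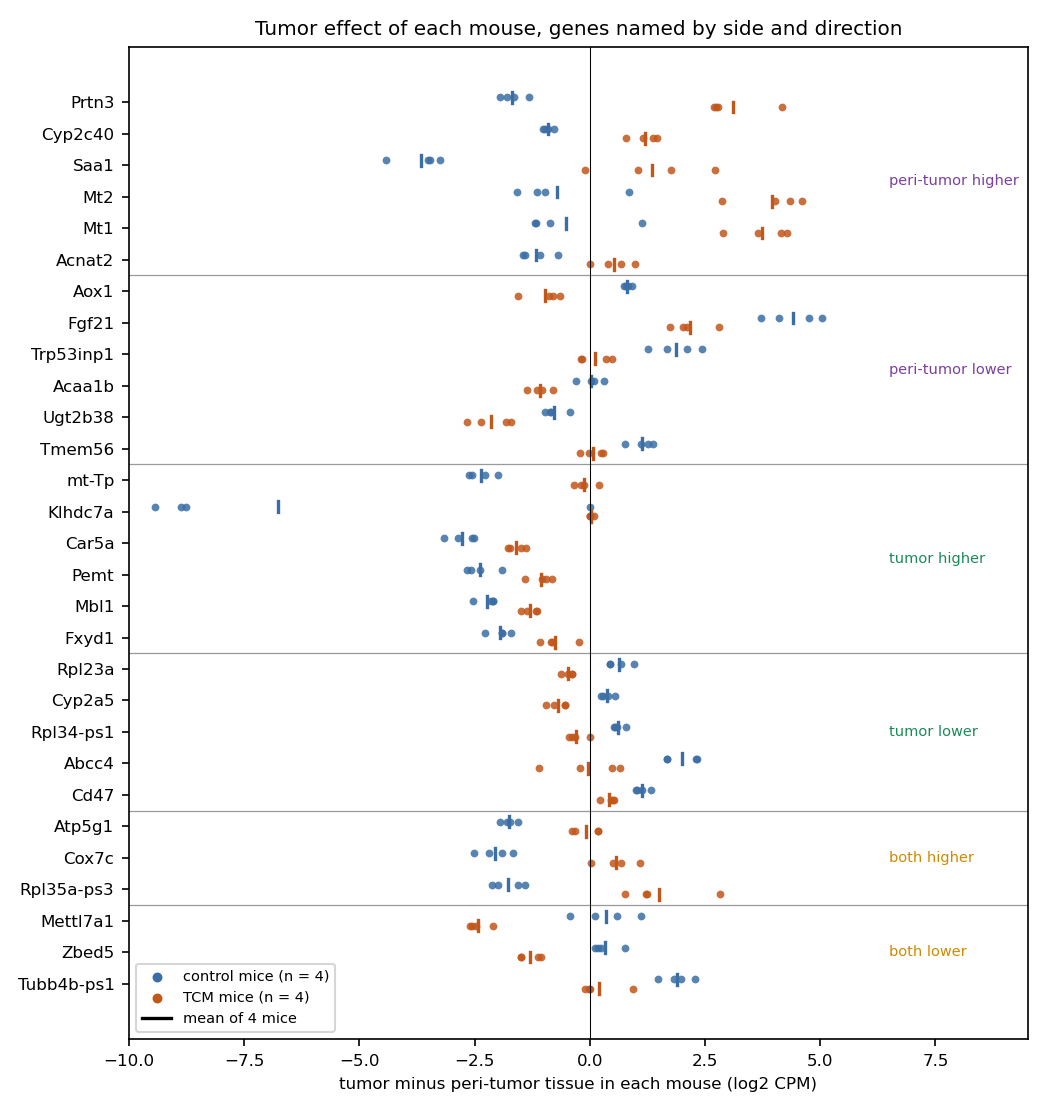
Tumor minus peri-tumor log2 CPM in each of the 8 mice (points; bars are means of 4 mice) for 29 called genes named by side and direction. Control and TCM mice do not overlap in any row but Klhdc7a, where control mouse 2 and TCM mice 1 to 3 are at 0; in Prtn3, Cyp2c40, Acnat2 and Aox1 the signs are opposite in the 2 treatments, in Car5a, Pemt, Mbl1 and Fxyd1 all 8 mice are negative.

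A further 49 genes had parts from both tissues. Of the 35 higher genes 18 were annotated as pseudogenes and 19 had at least 25% of their 50-base words in other genes, while on the peri-tumor and tumor sides together 5 of the 58 were pseudogenes. Over all called genes 28 were pseudogenes (2.41% of those tested) and 73 protein coding (0.566%), and calls were made for 1.94% of genes with at least 25% of words shared and 0.535% of the rest. The 19 higher genes with shared words were high in control peri-tumor tissue and TCM tumors and low in control tumors and TCM peri-tumor tissue in all 16 libraries: their median deviation from the gene mean was 0.399 to 1.01 and 0.317 to 0.748 in the first 2 groups and -0.583 to -0.428 and -0.798 to -0.223 in the others (log2 CPM). The 16 higher genes with few shared words were high in control peri-tumor tissue (0.682 to 0.741), low in control tumors (-0.741 to -0.599) and near 0 in both tissues of TCM mice (-0.124 to 0.102). By the way these higher genes were chosen, TCM against control was negative in peri-tumor tissue and positive in tumors. Their order in the same libraries is thus no separate support. The part of read assignment in these calls was not tested. Refitted without all genes with at least 25% of words shared, the table gave 42 calls, 19 on the peri-tumor side, 8 on the tumor side and 15 on both. Of the 107 called genes 69 were tested in that fit, and only 42 of these stayed called.

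**Figure D4:**
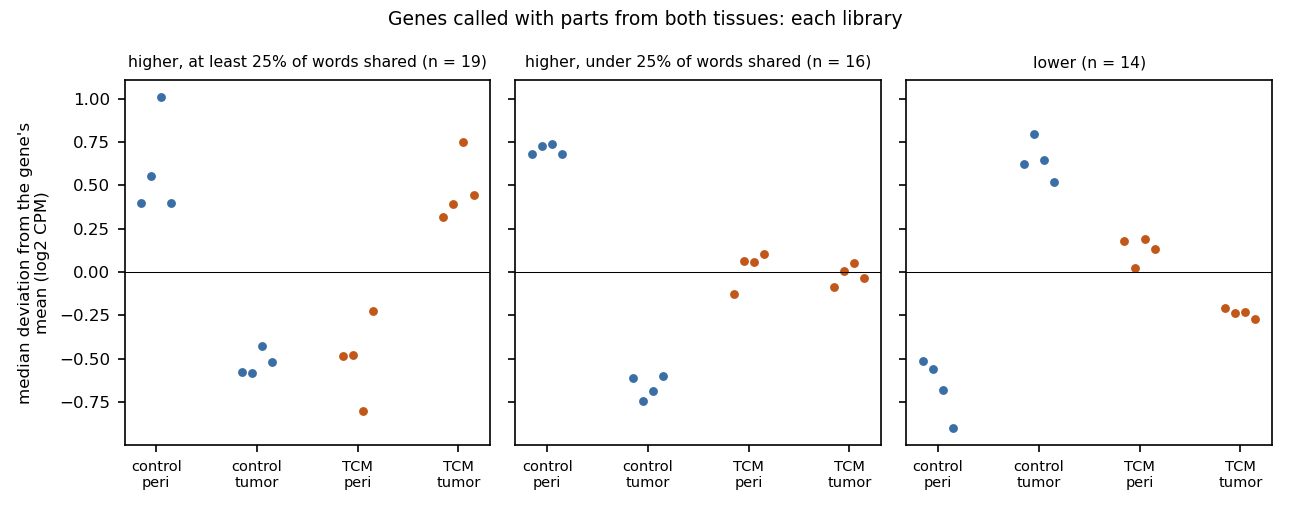
Median deviation from each gene's mean (log2 CPM) in each library for the called genes with parts from both tissues, split into 19 higher genes with at least 25% of words shared, 16 higher genes with fewer, and 14 lower genes. The first panel crosses, with control peri-tumor tissue and TCM tumors high, and in the second the 8 TCM libraries stay near 0. The genes were chosen by these same values, which set the direction of TCM against control in each tissue.

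Of the genes with parts from both tissues, Atp5g1, Cox7c and Rpl35a-ps3 had the lowest p among the higher ones with an established symbol. Atp5g1, which codes for subunit c of ATP synthase, had 67.6, 70.1, 55.8 and 48.2 CPM in peri-tumor tissue and 17.5, 23.8, 16.7 and 13.7 in tumors of control mice 1 to 4. In TCM mice Atp5g1 had 26.4, 31.2, 32 and 40.4 in peri-tumor tissue and 29.96, 23.8, 36.4 and 32.2 in tumors, in the same order. It was about level between the tissues of TCM mice and lower in tumors of all control mice (log2 1.68 ± 0.17, adjusted p = 0.0047; 10.6% of words shared). Cox7c, a subunit of cytochrome c oxidase, had 11.4 to 15.7 CPM in control peri-tumor tissue and 2.41 to 4.0 in control tumors. In TCM mice Cox7c had 5.82 to 7.93 in peri-tumor tissue and 8.02 to 12.6 in tumors (log2 2.68 ± 0.28, adjusted p = 0.0047; 27.9% shared). The ribosomal protein genes Rpl11 and Rpl41 had log2 values of 2.03 and 1.69 (adjusted p = 0.0194 and 0.0226; 38.2% and 28.5% shared), calls lost without control mouse 1, 2 or 3 or TCM mouse 1 (up to 0.0802 and 0.086), and the pseudogene Rpl35a-ps3 3.34 (0.0128; all shared), which lost its call without control mouse 3 (0.0578). Cox7c was the 1 of 56 nuclear-encoded oxidative phosphorylation genes called (median 0.19), and Rpl11 and Rpl41 the 2 of 63 cytosolic ribosomal protein genes (median 0.08). Over all tested genes 0.505% were called higher and 0.215% lower, and the median was 0.02. The ribonucleotide reductase subunit Rrm2, which makes the building blocks of DNA, had 12.1, 9.8, 14 and 7.6 CPM in peri-tumor tissue and 12.5, 11.6, 11.5 and 13 in tumors of control mice 1 to 4. In TCM mice Rrm2 had 6.08, 4.25, 7.86 and 5.44 in peri-tumor tissue and 22.8, 24.9, 25.1 and 18 in tumors, in the same order. Tumor and liver were near each other in control mice 1 to 3, and the tumor was higher in control mouse 4 (13 against 7.6 CPM). Tumors were higher in all 4 TCM mice (log2 1.77 ± 0.27, adjusted p = 0.0226). Rrm2 lost its call without control mouse 1, 2 or 3 or TCM mouse 1 or 3 (adjusted p up to 0.086, edgeR). It was the 1 of 40 cell cycle genes called; 30 of them were above 0, as were 51.9% of all genes, the median was 0.45, and in tumors 12 were called higher and 0 lower in TCM mice (4.55% and 2.72% of all genes).

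Some secreted and signaling proteins also had parts from both tissues. Vitronectin (Vtn), an adhesive plasma protein, had 2348 to 2882 CPM in control peri-tumor tissue and 961 to 1020.1 in control tumors. In TCM mice Vtn had 1784 to 1970.2 in peri-tumor tissue and 1138 to 1323 in tumors (log2 0.85 ± 0.15, adjusted p = 0.0412). The chemokine Cxcl12 stood at 204 to 290.4 CPM in control peri-tumor tissue and 41 to 52.3 in control tumors. In TCM mice Cxcl12 had 147 to 169.6 in peri-tumor tissue and 47 to 68.9 in tumors (log2 0.97, adjusted p = 0.0435). In both, all tumors were below all peri-tumor libraries of their treatment and the gap was narrower in TCM mice. Nr1i2, the xenobiotic receptor PXR, had the smallest difference of this kind (log2 0.68, adjusted p = 0.0428), and was lost without any mouse but control mouse 4 (up to 0.123). Among the 14 lower genes, Igfbp3, a carrier of insulin-like growth factors, had 10.6, 13.4, 17.9 and 10.3 CPM in peri-tumor tissue and 298, 649, 315 and 254 in tumors of control mice 1 to 4. In TCM mice Igfbp3 had 21.6, 30.4, 28 and 20.9 in peri-tumor tissue and 152, 37.5, 64.2 and 97.6 in tumors, in the same order. It rose in tumors of all 8 mice, least in TCM mouse 2 (log2 -3.15 ± 0.53, adjusted p = 0.0337). Betacellulin (Btc), a ligand of the EGF receptor, had 0.907 to 2.58 CPM in control peri-tumor tissue and 17 to 21.8 in control tumors. In TCM mice Btc had 2.63 to 4.53 in peri-tumor tissue and 6.2 to 12.2 in tumors (log2 -2.33 ± 0.40, adjusted p = 0.0368). The methyltransferase-like gene Mettl7a1 was at 37 to 259 CPM in control peri-tumor tissue and 56.2 to 193 in control tumors. In TCM mice Mettl7a1 had 222 to 237 in peri-tumor tissue and 36.6 to 53.8 in tumors (log2 -2.78 ± 0.30, adjusted p = 0.0047). Its control libraries were scattered, and it was lower in the tumor of every TCM mouse. For Mettl7a1, TCM against control was called in neither tissue (adjusted p = 0.268 in peri-tumor tissue and 0.0674 in tumors, edgeR fit of group means). Zbed5 stood at 51.8 to 72.1 CPM in control peri-tumor tissue and 66 to 88.6 in control tumors. In TCM mice Zbed5 had 96.6 to 128 in peri-tumor tissue and 44.4 to 51.4 in tumors. It was higher in the tumor of each control mouse and lower in that of each TCM mouse (log2 -1.62 ± 0.18, adjusted p = 0.0053). The tubulin pseudogene Tubb4b-ps1 had log2 -1.70 (adjusted p = 0.0226; 56.8% shared), lost without any mouse but control mouse 4 and TCM mouse 4 (up to 0.086). Mettl7a1 and Zbed5 were called without each mouse in turn (at most 0.0238 and 0.0294, edgeR). Vtn lost its call without any mouse but control mouse 4 (up to 0.124). Saa2, Saa3, Saa4, Cyp2c70, Fkbp5, Cxcl12, Igfbp3 and Btc were chosen after their values were seen; without 1 of the 8 mice at a time their calls held in 3, 5, 4, 2, 2, 1, 4 and 2 of 8 fits.

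Most gene lists had few called members, and they are described by their medians. Over all tested genes 0.505% were called higher and 0.215% lower, 51.9% were above 0 and the median was 0.02. NRF2 targets had a median difference of -0.63, with 22 of 26 below 0 and 14 lower and 1 higher at an unadjusted p under 0.05 (8.90% and 10.3% of all genes), but 1 called (Abcc4, lower). Gclc, which starts glutathione synthesis, and Ephx1, an epoxide hydrolase, just missed the threshold (log2 -1.67 and -1.64, adjusted p = 0.0516 and 0.0516). Both were called by DESeq2, limma-voom and the fit without control mouse 4, among others. DESeq2 called 12 NRF2 targets (5.03% of all genes). Targets of p53 had a median of -0.76, with 19 of 24 below 0 and 1 called (Trp53inp1, lower); Mdm2 and Cdkn1a were at -1.09 and -1.95 (adjusted p = 0.0802 and 0.0948), and DESeq2 called both. Of 22 immediate early genes 1 was called (Egr1, lower), with a median of -0.65, and of 22 RAS to ERK output genes Egr1 again, with a median of -0.42. For TCM against control, the peri-tumor medians of these 4 lists were 0.40, 0.24, 0.08 and -0.04 and the tumor medians -0.20, -0.56, -0.42 and -0.49. Lists of oncofetal markers (median -0.47, 1 of 23 called, Lcn2, higher), stellate cell markers (-0.44, 0 of 22) and extracellular matrix genes (-0.31, 0 of 43) also had negative medians; at an unadjusted p under 0.05 the last 2 had 5 and 8 genes lower and 0 higher (8.90% and 10.3% of all genes), and DESeq2 counted 1 and 0 calls (5.03%).

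Markers of Kupffer cells, the resident macrophages of liver, had a positive difference in all 19 genes, with a median of 0.75, but none was called by edgeR; at an unadjusted p under 0.05, 8 were higher and 0 lower (10.3% and 8.90% of all genes, of which 51.9% were above 0). DESeq2 called 3 and limma-voom 0 (5.03% and 2.97% of all genes). Marco, a scavenger receptor, had the lowest p (log2 3.43, adjusted p = 0.0918, edgeR). It was called without control mouse 4 (log2 4.26, adjusted p = 0.0185, edgeR) and by DESeq2 (adjusted p = 0.0158). In peri-tumor tissue 13 of the 19 were called lower in TCM mice and 0 higher (7.35% and 6.71% of all genes), and in tumors 2 were lower (2.72%). Their summed level was 1422 to 2268 CPM in control peri-tumor tissue and 554 to 641 in control tumors. The same sum was 979 to 1107 in TCM peri-tumor tissue and 332 to 743 in TCM tumors. The control peri-tumor libraries were all above the rest, and the 2 tumor groups overlapped. T and NK cell markers had a like median (0.75) with 0 of 18 called and 2 genes higher at an unadjusted p under 0.05 (10.3% of all genes; DESeq2 called 1), at summed levels of 10.1 to 47.9 CPM over all libraries. The part of these cells in the acute phase and other peri-tumor differences was not tested.

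**Figure D5:**
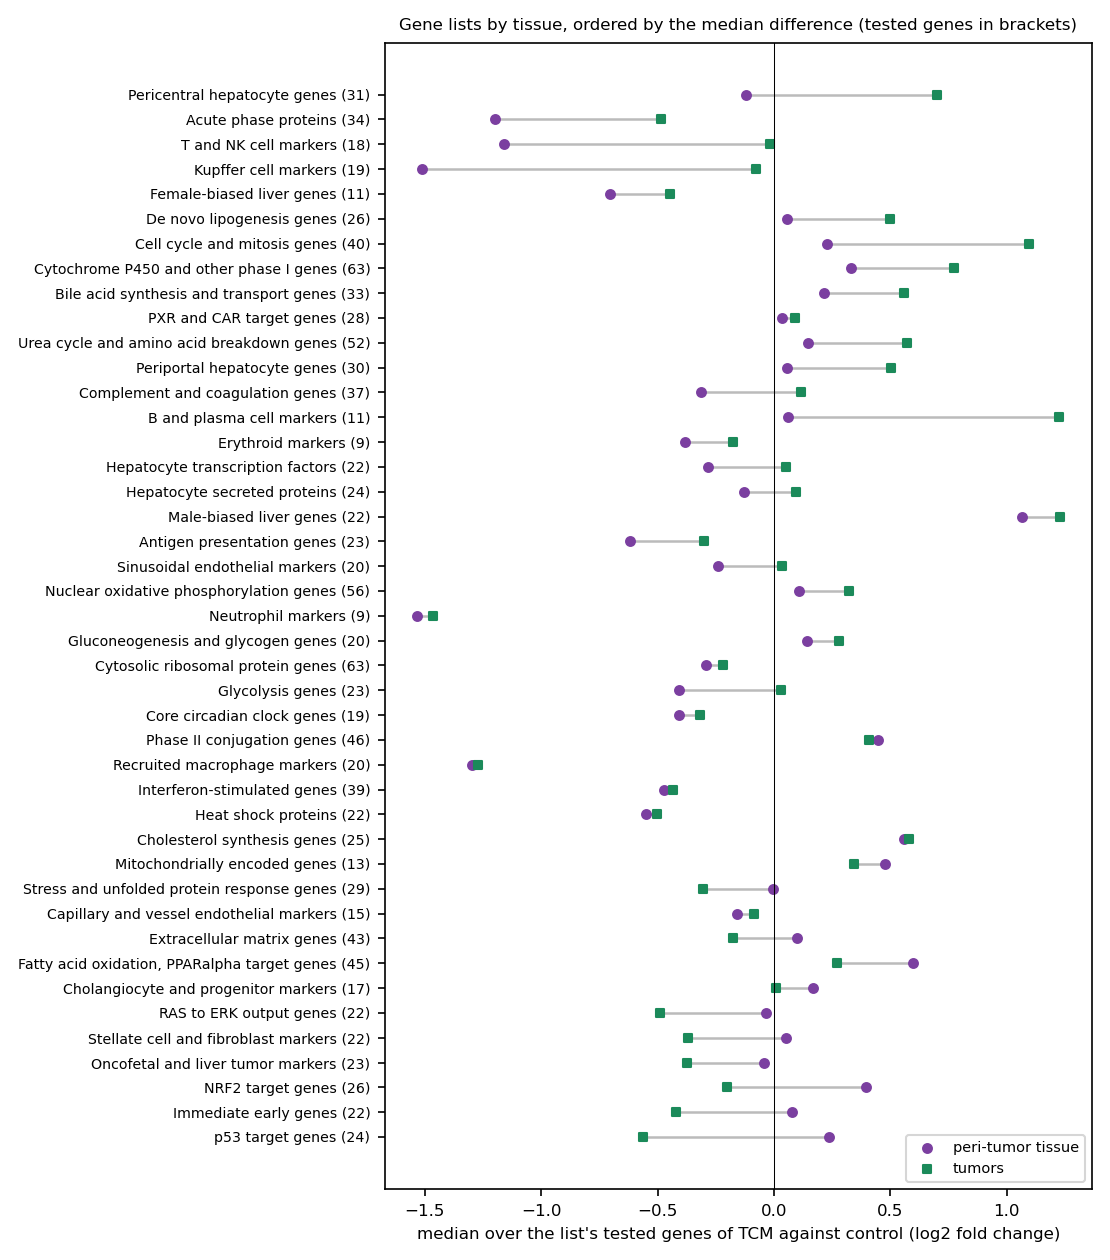
Median log2 fold change of TCM against control in peri-tumor tissue (circles) and tumors (squares) for 43 gene lists, ordered by the median difference of the tumor effect. For acute phase proteins and Kupffer cell markers the peri-tumor circle lies farther left than the tumor square, for pericentral, urea cycle and cell cycle genes the tumor square lies farther right, and for p53 and NRF2 targets the order of the 2 is reversed.

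Without control mouse 4, whose libraries lay apart, 554 of 15027 genes were called (3.69%), 383 higher (2.55%) and 171 lower (1.14%), with 239 on the peri-tumor side, 125 on the tumor side and 190 on both. Among the fits without 1 mouse this one gave the most calls. The others gave 20 to 115, and their lists are not described. In the fit without control mouse 4, lists of hepatocyte function held more calls, as did all tested genes (3.69% against 0.720% with all mice). Of 31 pericentral genes 11 were higher and 2 lower, among them Cyp2e1, Cyp7a1, Rgn and Oat higher and Gstm3 lower. Of 52 urea cycle and amino acid genes 11 were higher and 0 lower, with Asl, Ass1 and Cbs among them, and of 63 phase I genes 15 were higher and 4 lower. Acute phase genes had 11 higher and 0 lower, with Crp and Socs3 added, and NRF2 targets 1 higher (Hmox1) and 7 lower, with Nqo1, Srxn1 and Gclc added. Of 25 cholesterol synthesis genes 0 were higher and 5 lower (Sqle, Cyp51, Idi1, Nsdhl and Msmo1), a list with 0 calls when all mice were kept. The genes named here for this fit were chosen after its values were seen.

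None of the 13 genes followed for their role in liver and liver tumors passed the edgeR test for a difference with all mice. For the tumor markers Afp and Gpc3 the log2 difference was -0.86 ± 0.91 and -0.07 ± 0.82 (SE; adjusted p = 0.656 and 0.975, edgeR), and for the imprinted growth genes Igf2 and H19 -5.01 ± 1.67 and 0.89 ± 0.87 (0.155 and 0.624). Igf2 had 0 to 0.209 CPM in control peri-tumor tissue and 0.127 to 9.56 in control tumors. In TCM mice Igf2 had 0.0675 to 1.09 in peri-tumor tissue and 0 to 3.46 in tumors, so its value rests on few counts. These reads may belong in part to other genes, since 75.9% of the words of Igf2 are shared. DESeq2 called Igf2 (adjusted p = 0.0411). Single mice moved 3 of these: Afp ran from -1.48 without control mouse 3 to -0.16 without TCM mouse 3, Igf2 from -7.18 without TCM mouse 1 to -3.54 without TCM mouse 4, and H19 from 0.07 without control mouse 3 to 1.61 without TCM mouse 3 (log2). Mki67, a marker of dividing cells, had 2.93 to 4.33 CPM in control peri-tumor tissue and 12.4 to 15.9 in control tumors. In TCM mice Mki67 had 1.32 to 8.16 in peri-tumor tissue and 19.4 to 45.1 in tumors; the per-mouse differences did not overlap between treatments (log2 1.24 ± 0.36, adjusted p = 0.116, edgeR; 0.037 by DESeq2). Glutamine synthetase (Glul), Cyp1a2 and Cyp7a1, made by hepatocytes near the central vein, had log2 differences of 1.35 ± 0.49, 1.15 ± 0.49 and 2.28 ± 0.93 (adjusted p = 0.182, 0.242 and 0.225). Cyp1a2 was called without TCM mouse 4 (log2 1.64, adjusted p = 0.0488, edgeR). Cyp7a1 was called without control mouse 4 (log2 3.25, adjusted p = 0.0312, edgeR) and fell to 1.53 without control mouse 2. The drug-induced P450 Cyp3a11 had 890.3 to 1512 CPM in control peri-tumor tissue and 223 to 269 in control tumors. In TCM mice Cyp3a11 had 4081 to 6951 in peri-tumor tissue and 729.97 to 1997 in tumors. It was higher in TCM mice in both tissues, by 2.15 and 2.43 on the log2 scale, so its tumor effect was near equal in the 2 treatments (log2 difference 0.19 ± 0.23, adjusted p = 0.703). Cyp2b10, another, had 0 to 0.827 CPM in control peri-tumor tissue and 0.0597 to 0.129 in control tumors. In TCM mice Cyp2b10 had 8.12 to 13.1 in peri-tumor tissue and 0.31 to 1.52 in tumors (log2 -1.92 ± 1.02, adjusted p = 0.335). Hras, Dusp6 and Alb had log2 differences of 0.24, -0.44 and -0.34.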

How the data were processed

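Gene expression was measured by RNA-seq in 16 mouse liver libraries, a tumor and a peri-tumor library from each of 4 control and 4 TCM mice. The values used are raw read counts per gene as the authors deposited them, for 54838 genes, with 13947483 to 16194224 counts per library. Libraries came from a stranded mRNA kit, per the labels' protocols. The submitters' processing notes name 2 mouse builds without saying which was used. The sources used here do not name the aligner, the counting program or its strand setting. FPKM values of the same libraries were not used. Of the 54838 rows 115 have a gene identifier but no symbol; they held at most 0.0171% of a library and were kept under their identifiers.

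Counts were analysed in R 4.3.3 with edgeR 4.0.16: TMM scaling, filterByExpr with a minimum count of 10 over the 4 groups (14865 genes kept), and the quasi-likelihood test of the tumor effect in TCM minus control mice with 1 term per mouse (6 residual degrees of freedom), Benjamini-Hochberg adjusted over all tested genes, threshold 0.05. Effects within each tissue or treatment came from a fit of the 4 group means (12 residual degrees of freedom). The part of a difference carried by peri-tumor tissue set its side (at least 70%, at most 30%, or between). Libraries of 1 mouse share its animal code, which pairs them; their deviations from the group means correlated at 0.0433 to 0.235, and 7 of 8 mice correlated best with their own number. Per-mouse differences are of log2 CPM with a prior count of 2. No 2 libraries of a group were alike within counting error. Nothing in the labels beyond the animal code says how samples were handled, so p-values measure the spread between these mice. The test was also run on counts simulated with the spread of this fit, which cannot show how calls depend on single mice.

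Named are, among called genes with at least 5 CPM in a group and an established symbol, the 6 with the lowest p in each direction on the peri-tumor and tumor sides and the 3 with the lowest p in each direction on both sides; from each of 43 gene lists at most 3 members, those of lowest p with at least 1 CPM; and 13 followed genes. Genes outside this rule are marked as chosen after their values were seen. The members, lists and tests were chosen with earlier results of these data known. Alternatives were DESeq2 1.42.0 size factors and test, limma 3.58.1 voom, other count filters, no mouse block, each mouse left out and other side limits. Added after seeing the data were a fit without genes that share at least 25% of their 50-base words with other genes (GENCODE M21 transcripts) and one with GC content and length corrected. Promoters and coordinates come from RefSeq and GENCODE on GRCm38.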

Additional observations from a re-analysis of the deposited data

Results flagged for a closer look

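The control and TCM mice of 54 named or followed genes were examined as groups of 4. In 9 of these groups 1 mouse lay far from the other 3 in its tumor minus peri-tumor log2 CPM, past Dixon's 95% critical value. Chance alone marks about 1 in 20 such groups. Control mouse 4 was the mouse concerned in 3 of the 9: it was at 1.13 for Mt1 (others -1.18 to -0.86), 1.68 for Egr1 (5.16 to 5.85) and -1.07 for Srebf1 (-2.38 to -2.18). TCM mouse 4 was at 4.18 for Prtn3 (2.71 to 2.79), at 0.94 for Tubb4b-ps1 (the highest of the others -0.00035) and at 0.10 for Klhdc7a, where the others were at 0. Control mouse 2 was at 0 for Klhdc7a, with both tissues listed at 0 (others -9.44 to -8.77), and at -2.54 for Mbl1 (-2.14 to -2.09). TCM mouse 3 was at -0.0088 for Nr1i2 (-0.28 to -0.24).

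The tumor effect differed between the treatments by the test of the difference itself in 75 genes that were higher and 32 that were lower in TCM mice (edgeR). The median absolute tumor effect over all tested genes differed by -0.0728 (log2 CPM, exact permutation test, two-sided, p = 0.0286), with all 4 TCM mice below all 4 control mice.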

How the results depend on the processing

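Calls rested on 4 mice per group, and single mice moved their number more than scaling did. Leaving out each mouse in turn gave 20 to 554 calls for the difference, 7 to 239 on the peri-tumor side, 2 to 125 on the tumor side and 10 to 190 on both; TCM against control gave 950 to 3434 calls in peri-tumor tissue and 369 to 1877 in tumors. The upper end of each range is the fit without control mouse 4. Of the 107 genes, 15 remained called without each of the 8 mice and 35 without at least 4 of them. The TCM minus control difference of the median absolute tumor effect ran from -0.0842 to -0.0632 without each mouse. Its direction could hardly change, since the 2 groups of mice did not overlap.

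DESeq2 called 690 genes (290 on the peri-tumor side, 159 on the tumor side, 241 on both) and 1805 for TCM against control in tumors. Limma-voom called 441 (145, 99 and 197). Without a filter on low counts the tumor side held 10 genes and TCM against control in tumors 687. The fit of the 2 peri-tumor groups alone called 1369. With side limits of 60 and 40 percent the tumor side held 28 genes and both sides 29; with 80 and 20 percent the tumor side held 11. Without genes of at least 25% shared words 42 were called (19, 8 and 15). Of the 107 genes, 69 were still tested there and only 42 of these stayed called, so leaving genes out accounts for the fall only in part. The GC and length correction put 32 genes on the tumor side. The cause of the other changes was not tested. RLE size factors and a filter at 1 CPM left the number of calls within 1.5 times, and 56 of the 107 genes held under RLE, both filters, DESeq2, limma-voom and no block.

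Without the mouse as a replicate block, 165 genes were called (27 on the tumor side, 88 on both), with 75 of the 107 among them. Named genes that were no longer called without the block were Cyp2c40, Cyp2c70, Saa1, Saa2, Saa3, Fkbp5, Acnat2, Fgf21, Trp53inp1, Acaa1b, Tmem56, Klhdc7a, Mbl1, Cyp2a5, Abcc4, Mettl7a1, Por, Nr1i2 and Srebf1. Limma-voom did not call Saa2, Saa3, Fkbp5, Acnat2, Fgf21, Acaa1b, Klhdc7a, Cyp2a5, Por and Srebf1, the fit with no filter did not call Abcc4, Cd47, Egr1, Notum, Haao, Nr1i2 and Cxcl12, the fit of genes with under 25% of words shared did not call these 7, Lcn2 and Por, and the GC and length correction did not call Cd47, Lcn2, Por, Nr1i2 and Vtn. No gene among the 107 reversed its direction in any fit run.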
